A study of Mus musculus with 12 samples.

Results

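The genes described here lie within 10 Mb of Pias3 on mouse chromosome 3 (mm10). Members were genes of the deposited count table that lie wholly between 86696375 and 106706070 and have a mean of at least 50 counts over the 12 samples. Of 24062 genes in the table, 415 lay in this interval. Of these, 12 were left out by name (Pias3 itself, Rps27 and 10 Hist2h histone genes) and 197 were under the count minimum, which left 206 genes. The members were thus chosen by position and by 1 measured value, the mean count over all samples of both genotypes. It was lowest for Mov10 inside (52.1 counts) and highest for Kcnn3 outside (48.3 counts). Of the 206 genes, 146 lie on the side of lower coordinates, called proximal here, and 60 on the side of higher coordinates, called distal.

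RNA was sequenced from the retina of wild-type mice (Pias3+/+) and of Pias3 knockout mice (Pias3-/-), all of strain C57Bl6/J per the labels. Mice were taken at postnatal day (P) 21 and at 18 months, and each genotype and age has 3 samples, each made of 2 retinas. The mutant line carries a germline deletion of Pias3 exons 2 to 5 in every tissue. It arose when Rx-Cre acted in the oocyte of mice carrying a floxed allele made by targeting in embryonic stem cells, and the selection cassette had been removed by Actin-Flp. The line was backcrossed to C57BL/6J. The strain of the stem cells and the number of backcross generations are not given in the sources used here, so the deletion and any stem-cell DNA still linked to it cannot be told apart in these groups. Mice of either sex were used, and the samples of a group are biological replicates.

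Pias3 encodes an E3 ligase that attaches SUMO to other proteins, among them transcription factors of photoreceptors, the light-sensing rods and cones that make up most retinal cells. A chromosome neighbourhood is not a pathway. Its genes share position only, and each is read through its own promoter, although neighbours can share enhancers. This stretch of chromosome 3 holds the S100 family of calcium-binding proteins, ephrin ligands, many housekeeping genes for splicing, mitochondria and protein turnover, and the 1 gene whose deletion defines the line. Whether the deletion was accompanied by changed expression of its neighbours is the question of the comparison.

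Pias3 was examined first as a check of the labels. In CPM (counts scaled to library totals after TMM normalization), Pias3 was at 129, 114 and 141 in Pias3+/+ and at 72.3, 75.9 and 87.1 in Pias3-/- retina at P21. At 18 months it was at 101, 97.6 and 108 in Pias3+/+ and at 57.1, 52.8 and 61.1 in Pias3-/- retina. Every mutant sample was below every wild-type sample of its age. Its log2 fold change was -0.71 (SE 0.109, FDR 0.0346) at P21 and -0.84 (SE 0.0802, FDR 0.00458) at 18 months (quasi-likelihood test of edgeR, FDR by the Benjamini-Hochberg method). Counts are per gene and include exons outside the deletion.

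Library totals ranged from 11607155 to 25622505 counts, and the 206 genes took between 1.24% and 1.35% of them. Rod markers were abundant in every library, at a sum of 40476 to 71262 CPM over 6 genes. Marker sums moved with some groups. At P21 the rod sum was 40476 to 41640 CPM in Pias3-/- against 53958 to 56706 CPM in Pias3+/+ samples, and in bulk tissue fewer cells of a type and less RNA per cell cannot be told apart. The sum over 7 pigment epithelium markers at P21 was 71.0 to 276 CPM in Pias3-/- and 246 to 316 CPM in Pias3+/+ samples. At that age the lens sum was 10.9 to 58.9 CPM against 56.4 to 277 CPM, the sum over 4 ciliary body and iris markers 16.04 to 26.5 CPM against 19.2 to 34.9 CPM, and the cone sum 1303 to 1353 CPM against 1469 to 1504 CPM, without overlap. The sum over 7 lens markers was 6959 CPM in Pias3-/- replicate 2 at 18 months, and between 5.16 and 55.5 CPM in the other 5 samples of that age. The ciliary body and iris sum also stood apart in that library, at 108 CPM against 3.45 to 7.01 CPM. At 18 months all 3 Pias3+/+ samples expressed Xist and all 3 Pias3-/- samples expressed Ddx3y, so genotype and sex cannot be told apart at that age. At P21 both sexes were present in each genotype.

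At P21, 3 genes of the neighbourhood differed between the genotypes. Olfml3, which encodes a secreted olfactomedin-like matrix protein, and Wnt2b, which encodes a secreted Wnt ligand found at the margin of the retina, were lower in Pias3-/- retina. Selenbp1, which encodes a selenium-binding methanethiol oxidase, was higher. A gene was called when its FDR was at most 0.05 and its fold change at least 1.5, in a fit of all 12109 genes with at least 2 FPKM (CPM per kilobase of gene length) in 1 sample of that age. The 3 called genes are 1.55% of the 194 neighbours tested, beside 0.818% of all genes tested. By direction, 1 was higher (0.198% of all genes were) and 2 were lower (0.619%). At 18 months none of 192 neighbours was called by the same test, where 0.257% of all 12068 genes were. At that age the unadjusted p of that edgeR test was at most 0.05 for 22 neighbours, and DESeq2 and edgeR's likelihood ratio test each called 1 (0.521%), Wnt2b, beside 0.514% and 0.464% of all genes.

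Most neighbours stayed close to the wild-type level. The median log2 fold change was 0.00 at P21 over the neighbours and over all genes tested alike. Of 194 neighbours, 97 lay above 0 and 97 below, and 181 (93.3%, beside 94.4% of all genes) lay within 0.5 of 0 on the log2 scale. An unadjusted p of at most 0.05 was found for 33 neighbours at P21 (17.0%, beside 16.8% of all genes) and for 22 at 18 months (11.5%, beside 9.27%). The 3 samples of one genotype lay wholly above or below those of the other for 55 neighbours at P21 (28.4%, beside 26.5% of all genes) and for 33 at 18 months (17.2%, beside 15.8%). These shares are near those of the whole table. The 95% interval of the fold change lay inside 1.5-fold in both directions for 159 of 194 neighbours at P21 (82.0%, beside 74.6% of all genes) and for 170 of 192 at 18 months (88.5%, beside 82.4%). Neighbours had to have a mean of at least 50 counts, which was not asked of all genes. The part of this minimum in the higher shares was not tested.

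**Figure D1:**
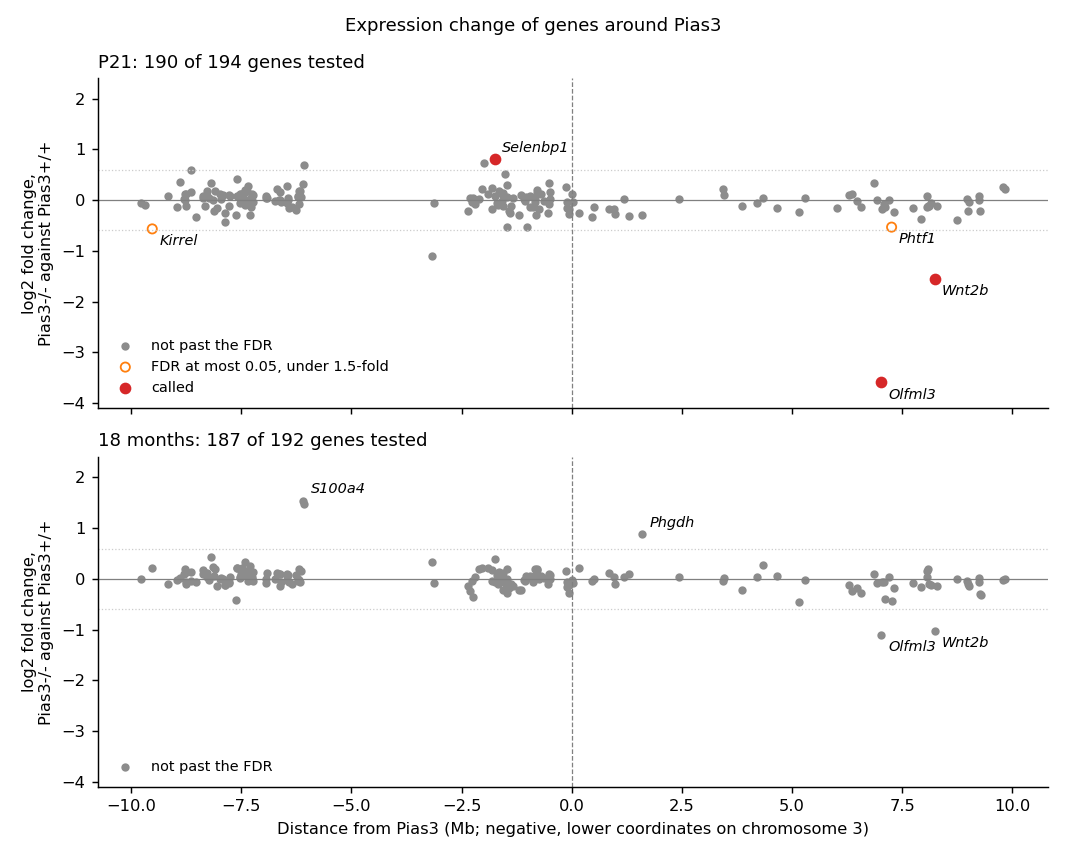
Log2 fold change of Pias3-/- against Pias3+/+ retina (vertical axis) by distance from Pias3 in Mb (horizontal axis) for 190 of the 194 genes tested at P21 and 187 of the 192 tested at 18 months. Each point is a gene and the dotted lines mark a fold change of 1.5. Called genes lie 1.75 Mb proximal (Selenbp1) and 7.03 and 8.24 Mb distal (Olfml3 and Wnt2b), while the genes drawn beside Pias3 lie near 0 at both ages.

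Olfml3 lies on chromosome 3 from 103735394 to 103738001 on the minus strand, 7.03 Mb distal of Pias3. It is a low-level transcript, at a mean of 3.48 FPKM. At P21 it had 9.86, 9.53 and 10.97 CPM in Pias3+/+ samples and 0.821, 0.638 and 1.00 CPM in Pias3-/- samples. Raw counts were 175, 137 and 204 against 15, 10 and 23. Every mutant sample was far below every wild-type sample. The log2 fold change was -3.59 (SE 0.183, FDR 8.11e-04), and the call held with each sample left out in turn, with log2 fold changes between -3.77 and -3.46. At 18 months Olfml3 had 8.29, 9.52 and 9.38 CPM in Pias3+/+ and 3.44, 6.87 and 2.23 CPM in Pias3-/- samples. All mutant samples were again lower, and replicate 2, the sample with lens, ciliary body and iris RNA, was the highest of them. The log2 fold change was -1.11 (SE 0.358, FDR 0.466). Without Pias3-/- replicate 2 it was -1.69 (SE 0.221, FDR 0.0176) and the gene was called, with 0.302% of all genes. With any other sample left out it was between -1.17 and -0.79 (FDR 0.376 to 1.00) and not called. The part of RNA from these tissues in its level was not tested.

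Wnt2b lies from 104944805 to 104961709 on the minus strand, 8.24 Mb distal of Pias3. At P21 it had 10.7, 13.6 and 13.6 CPM in Pias3+/+ samples and 4.43, 3.96 and 4.45 CPM in Pias3-/- samples. At 18 months it had 7.39, 7.34 and 7.54 CPM against 4.29, 3.31 and 3.42 CPM. The genotypes did not overlap at either age, and the mutant level was nearly the same at both. The log2 fold change was -1.56 (SE 0.143, FDR 0.00801) at P21 and -1.02 (SE 0.165, FDR 0.0703) at 18 months by edgeR's quasi-likelihood test. At P21 the call was lost without Pias3+/+ replicate 2 (FDR 0.0687), Pias3+/+ replicate 3 (FDR 0.0829) or Pias3-/- replicate 1 (FDR 0.0971), and with the pigment epithelium markers as a covariate (log2 fold change -1.65, FDR 0.0545). At 18 months DESeq2 called it (FDR 0.00156). Wnt2b is also expressed outside the neural retina, and the pigment epithelium, lens and ciliary body and iris sums above had lower medians in Pias3-/- samples at P21. For pigment epithelium this covariate is the only test of its part in the level, and the part of the others was not tested.

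The promoters of both genes that were lower are shown because they are the neighbourhood's called distal genes and differ in kind. Each sequence is the 250 bases before the RefSeq start site (GRCm38.p6, the assembly of mm10), read 5′ to 3′ on the gene's own strand, at chr3:103738002-103738251 for Olfml3 and chr3:104961710-104961959 for Wnt2b. Capitals mark the GC box, GGGCGG or its reverse complement CCGCCC, searched on both strands with overlapping matches counted.
Olfml3: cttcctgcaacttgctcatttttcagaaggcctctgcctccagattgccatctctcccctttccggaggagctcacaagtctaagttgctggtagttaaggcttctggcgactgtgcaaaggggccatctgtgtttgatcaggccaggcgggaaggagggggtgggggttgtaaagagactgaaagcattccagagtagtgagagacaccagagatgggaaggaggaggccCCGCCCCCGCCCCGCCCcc
Wnt2b: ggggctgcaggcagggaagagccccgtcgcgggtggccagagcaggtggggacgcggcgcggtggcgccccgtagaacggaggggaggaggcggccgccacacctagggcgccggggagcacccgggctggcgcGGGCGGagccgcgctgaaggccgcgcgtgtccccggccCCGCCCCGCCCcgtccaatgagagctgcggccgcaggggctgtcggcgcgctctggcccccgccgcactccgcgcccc

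Both promoters hold 3 GC boxes, a motif found in 32.7% of 32817 promoters of this length. The Wnt2b promoter has 36 CpG dinucleotides, more than 97.4% of promoters, and 80.8% G and C. That of Olfml3 has 6, which is the median over all promoters. Neither holds TATAAA on either strand, a motif of 12.4% of promoters. These matches describe the sequence only.

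Selenbp1 lies from 94933083 to 94944758 on the plus strand, 1.75 Mb proximal of Pias3. At P21 it had 85.8, 78.5 and 90.2 CPM in Pias3+/+ samples and 133, 142 and 175 CPM in Pias3-/- samples. The mutant samples were all higher. The log2 fold change was 0.82 (SE 0.117, FDR 0.0312). The call was lost without any 1 of the Pias3+/+ replicates 1, 2 and 3 (FDR 0.200, 0.172 and 0.162) or Pias3-/- replicate 1 (FDR 0.127), in a fit of all 12 samples (log2 fold change 0.82, FDR 0.102) and with the pigment epithelium markers as a covariate (0.80, FDR 0.163). The fold change itself was thus nearly the same in these last fits. At 18 months the samples overlapped, at 15.1, 28.0 and 13.1 CPM in Pias3+/+ and 16.2, 24.4 and 33.5 CPM in Pias3-/- retina (log2 fold change 0.39, SE 0.323, FDR 0.699).

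Its paralog Selenbp2 lies 1.99 Mb proximal of Pias3, from 94693573 to 94704406. At P21 Selenbp2 had 6.99, 5.36 and 5.06 CPM in Pias3+/+ and 7.17, 12.5 and 9.51 CPM in Pias3-/- samples. The genotypes did not overlap, and the gene was not called (log2 fold change 0.73, SE 0.225, FDR 0.167). Of the 31-base words in Selenbp1 transcripts of GENCODE M21, 61.1% also occur in Selenbp2 transcripts, so reads may have been split between the pair and both levels are uncertain. The promoters are also alike, and are shown because the pair moved together with age, as described below. Each is the 250 bases before the RefSeq start site on the plus strand (GRCm38.p6), at chr3:94932833-94933082 for Selenbp1 and chr3:94693323-94693572 for Selenbp2. Capitals mark the longest run of bases that both share, of 69 bases.
Selenbp1: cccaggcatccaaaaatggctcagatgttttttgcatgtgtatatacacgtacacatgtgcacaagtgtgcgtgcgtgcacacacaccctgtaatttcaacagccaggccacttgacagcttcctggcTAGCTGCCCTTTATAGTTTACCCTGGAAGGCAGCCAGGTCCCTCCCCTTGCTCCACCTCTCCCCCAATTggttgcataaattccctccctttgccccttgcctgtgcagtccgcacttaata
Selenbp2: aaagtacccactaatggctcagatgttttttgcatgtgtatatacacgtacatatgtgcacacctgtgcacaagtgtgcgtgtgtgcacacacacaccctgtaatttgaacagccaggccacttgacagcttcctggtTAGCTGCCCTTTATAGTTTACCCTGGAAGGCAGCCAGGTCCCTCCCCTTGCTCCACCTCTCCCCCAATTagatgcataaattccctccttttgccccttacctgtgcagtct

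In a global alignment of the pair, 223 of the aligned bases were identical and 15 differed (93.7% identity without gaps). Each holds 1 match to TATAAA on the minus strand, inside the shared run, and neither holds a GC box.

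**Figure D2:**
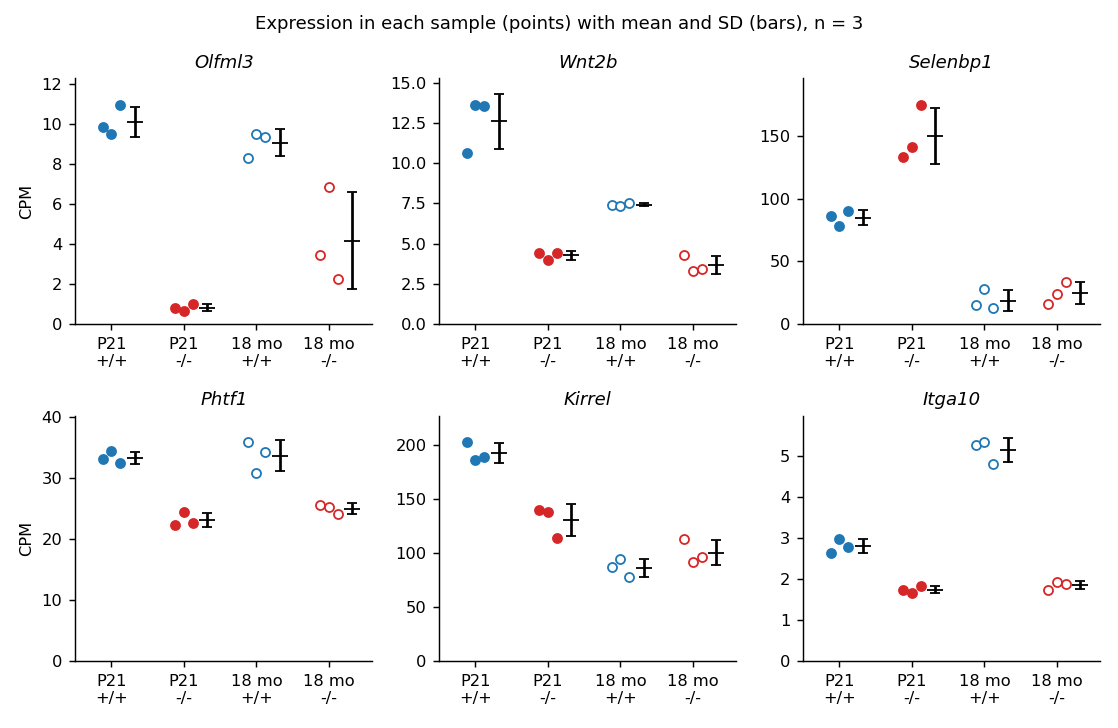
Expression in CPM (vertical axis, from 0) of 6 genes in every sample by age and genotype, with filled points for P21, open points for 18 months, blue for Pias3+/+ and red for Pias3-/-. Bars give the mean and SD of 3 samples. Olfml3 falls from 10.1 to 0.821 CPM at P21 and is spread from 2.23 to 6.87 CPM in the mutant at 18 months, whereas Selenbp1 differs more between ages than between genotypes.

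A further pair of neighbours had an FDR of at most 0.05 at P21 with a fold change under 1.5. Including these, 5 of 194 neighbours (2.58%) passed the FDR, beside 1.17% of all genes. Phtf1, which encodes a membrane protein first named as a putative homeodomain factor and lies 7.26 Mb distal from 103968110 to 104007491, had 33.1, 34.4 and 32.5 CPM in Pias3+/+ and 22.3, 24.5 and 22.6 CPM in Pias3-/- samples at P21. At 18 months it had 35.9, 30.9 and 34.3 CPM against 25.7, 25.3 and 24.1 CPM. It was lower in every mutant sample at both ages. Its log2 fold change was -0.53 (SE 0.0856, FDR 0.0395) at P21 and -0.43 (SE 0.0897, FDR 0.214) at 18 months. With each sample left out in turn, its FDR at P21 was between 0.0189 and 0.227, so it did not pass throughout. GENCODE places an antisense gene, Phtf1os, over it, and the strand setting of the counting is not given in the sources used here.

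Kirrel, which encodes an adhesion protein of the immunoglobulin superfamily, lies at the proximal end of the interval, 9.52 Mb from Pias3, from 87078592 to 87174747. It had 203, 186 and 190 CPM in Pias3+/+ and 140, 138 and 114 CPM in Pias3-/- samples at P21. At 18 months it had 87.1, 94.8 and 77.8 CPM against 113, 91.7 and 96.4 CPM, where the samples overlapped. The log2 fold change was -0.57 (SE 0.0982, FDR 0.0474) at P21 and 0.21 (SE 0.105, FDR 0.566) at 18 months. With each sample left out in turn, its FDR at P21 was between 0.0147 and 0.252. The interaction of genotype and age had an FDR of 0.0780.

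The genes with the next smallest FDR at P21 were Gpatch4 (log2 fold change 0.60, FDR 0.0653), a nucleolar G-patch protein, Kcnd3 (-0.40, FDR 0.0832), a voltage-gated potassium channel, and Syt6 (0.34, FDR 0.0897), a synaptotagmin. Gpatch4 was called by DESeq2 (FDR 0.0150). At 18 months, after Wnt2b, they were Ap4b1, a subunit of the AP-4 vesicle coat (-0.40, FDR 0.170), Phtf1, Mrpl9, a protein of the mitochondrial ribosome (-0.36, FDR 0.314), and Slc22a15, a solute carrier (-0.46, FDR 0.459). Ap4b1 lies 7.10 Mb distal, between Olfml3 and Phtf1. It had 30.8, 30.3 and 30.9 CPM in Pias3+/+ and 23.0, 22.9 and 23.9 CPM in Pias3-/- samples at 18 months. At P21 it had 34.4, 34.3 and 34.1 CPM against 30.5, 34.0 and 29.8 CPM. The genotypes did not overlap at either age. In GENCODE M21, 77.7% of the 31-base words of Ap4b1 transcripts also occur in Gm43064, a gene model that overlaps it on the same strand.

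None of the tested genes nearest to the deletion was called. Within 1 Mb of Pias3 lie 33 genes, of which 30 were tested at P21, with log2 fold changes from -0.34 (Acp6, a lysophosphatidic acid phosphatase) to 0.34 (Mtmr11). The smallest FDR among them was 0.174. For 26 of the 30 the 95% interval lay inside 1.5-fold. At 18 months 31 were tested, the smallest FDR was 0.471, and for 28 the interval lay inside 1.5-fold. The P21 background of 0.818% and the 18-month background of 0.257% apply here too.

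Of the nearest genes on the proximal side, Ankrd35 (5.34 kb away) and Itga10 (31.9 kb) were under the FPKM filter. Rbm8a (62.6 kb), which encodes the exon junction complex core protein Y14, had log2 fold changes of -0.17 (FDR 0.350) at P21 and -0.28 (FDR 0.488) at 18 months. Lix1l (71.0 kb) had -0.28 (FDR 0.228) and -0.12 (FDR 0.637).

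On the distal side, Polr3c (5.83 kb), which encodes a subunit of RNA polymerase III, had log2 fold changes of 0.12 (SE 0.0884, FDR 0.527) at P21 and -0.02 (SE 0.0992, FDR 0.967) at 18 months. Rnf115 (21.5 kb), a ubiquitin ligase, had -0.04 (FDR 0.853) and -0.09 (FDR 0.698). Gpr89 (165 kb), an anion channel of the Golgi, had -0.25 (FDR 0.319) and 0.21 (FDR 0.535). Acp6 (453 kb) had -0.34 (FDR 0.174) and -0.04 (FDR 0.899).

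Itga10, which encodes integrin alpha 10, a collagen receptor subunit, is the exception near the deletion, although its low level kept it out of the tests above. It lies from 96645584 to 96664519, and its highest value in any sample was 1.06 FPKM. It had 2.65, 2.99 and 2.80 CPM in Pias3+/+ and 1.75, 1.66 and 1.83 CPM in Pias3-/- samples at P21. At 18 months it had 5.28, 5.35 and 4.82 CPM against 1.75, 1.95 and 1.90 CPM, or 130, 91 and 55 counts against 29, 40 and 40. The genotypes did not overlap at either age, and the mutant level was alike at both. In a fit with no FPKM filter, over 19019 genes, its log2 fold change was -0.68 (SE 0.184, FDR 0.135) at P21 and -1.47 (SE 0.189, FDR 0.00574) at 18 months. In that fit 2 of 206 neighbours (0.971%) were called at 18 months, Itga10 and Wnt2b, beside 0.216% of all genes. At P21 it called the same 3 neighbours as the filtered fit, beside 0.783%. The interaction had an FDR of 0.420. GENCODE M21 places a read-through gene model, Gm42957, over Itga10, and 31.8% of the 31-base words of Itga10 also occur in it.

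The other members under the FPKM filter at both ages were Insrr, Nes, Bcan, Mex3a, Slc27a3, Ankrd35, Zfp697, Ttf2 and Mov10, 10 genes with Itga10. Without the filter, the smallest FDR among these 9 was 0.137 at P21, for Mov10, an RNA helicase, with a log2 fold change of -0.82 (SE 0.225). Nes, the intermediate filament gene of neural progenitors, had log2 fold changes of 0.35 at P21 and -0.47 at 18 months.

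Gene groups of the neighbourhood, here and below, were described by counts. Over all genes tested, 0.818% were called at P21 and 0.257% at 18 months. A small group with none called is thus near the share of the whole table. The 18 splicing and RNA processing genes held none called at either age, with medians of -0.02 at P21 and -0.04 at 18 months. Among its abundant members, Chtop (-0.08 and -0.02), which acts in mRNA export, and Adar (0.04 and -0.09), which deaminates adenosine in RNA, stayed near 0. The 13 genes of mitochondrial proteins held none called. At P21, 12 of them were above 0 with a median of 0.08, and at 18 months 10 were above 0 with a median of 0.04, beside 50.2% and 53.3% of all genes above 0. The ATP synthase subunit gene Atp5f1 had log2 fold changes of 0.08 and 0.02. The 23 genes of chromatin and transcription tested at each age held none called, with 15 below 0 at P21 (median -0.10) and 17 at 18 months (median -0.06). Among these, Mef2d, a transcription factor of photoreceptors, had -0.33 (FDR 0.141) and -0.06 (FDR 0.842).

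Of the 13 synaptic vesicle and membrane traffic genes none was called at either age. Sv2a, a synaptic vesicle glycoprotein and the neighbour with the second highest level per length (143.9 FPKM after Anp32e at 205.5 FPKM), had log2 fold changes of 0.03 and 0.07. None of 11 ion channel, pump and transporter genes tested at P21 and none of 12 at 18 months was called. None of 10 proteasome and ubiquitin genes and none of 9 small GTPases or their regulators was called. Of 6 retinal disease, retinoid and glial genes tested at P21 and 5 at 18 months none was called, among them Prpf3 (-0.03 and 0.00), a splicing factor mutated in retinitis pigmentosa. Of the ephrin ligands, Efna3 had 0.18 and 0.07 and Efna1 had -0.10 and 0.34. The immune cell genes Ctss, a lysosomal protease of microglia, and Cd1d1 were not called where tested.

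The groups that held a called gene did so through 1 member each. Of 11 genes listed under lipid and sterol metabolism, 1 is Selenbp1, the methanethiol oxidase described above. It was the gene called at P21, when the median of the list was -0.11, against 0.14 at 18 months with none called. Fdps, which makes farnesyl diphosphate for sterol and prenyl synthesis, had 0.41 (FDR 0.133) and 0.22 (FDR 0.504). Among 12 matrix, adhesion and progenitor genes tested at P21, Olfml3 was called and the median was -0.11, and among 11 at 18 months none was called and the median was 0.10. The median over all genes tested was 0.00 at P21 and 0.01 at 18 months.

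None of 7 S100 genes was called. S100a6 had 2.03, 2.50 and 2.64 CPM in Pias3+/+ and 3.23, 3.00 and 5.32 CPM in Pias3-/- samples at P21 (log2 fold change 0.70, FDR 0.238). At 18 months it had 3.45, 5.11 and 7.36 CPM against 4.47, 29.2 and 9.06 CPM, with the highest value again in the sample with lens RNA. The log2 fold change there was 1.47 (FDR 0.533), and 0.40 (FDR 0.659) without that sample. S100a11 had a log2 fold change of -1.11 (FDR 0.106) at P21 and was called by DESeq2. Of the 31-base words in S100a11 transcripts of GENCODE M21, 48.9% also occur in other genes, as do 49.2% of those of S100a4. S100a6, S100a4 and Phgdh, the first enzyme of serine synthesis, were among the genes with a fold change of at least 1.5 upward at 18 months, where 3.23% of all genes had one in either direction. Phgdh had 50.5 CPM in Pias3-/- replicate 2 and 8.15 and 5.88 CPM in replicates 1 and 3. All 3 of these genes were highest in that library, and the part of lens, ciliary body or iris RNA in their levels was not tested.

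Differences at P21 and at 18 months were set side by side for the 190 neighbours tested at both ages, which come from separate animals. Of these, 119 (62.6%) had the same sign at both ages, beside 64.1% of 11724 genes. Across genes, which are not independent replicates, Pearson's r was 0.34 over the neighbours and 0.20 over all genes, and Spearman's rho was 0.38 and 0.37. Without Olfml3, Wnt2b and Lenep, r fell to 0.13 over 187 neighbours. An unadjusted p of at most 0.05 at both ages was found for 6 neighbours (3.16%), all with the same sign, beside 289 of all genes (2.47%), of which 255 had the same sign. These were Olfml3, Wnt2b, Phtf1 and Arnt, a partner of the hypoxia and aryl hydrocarbon factors, on the lower side, and Fdps and S100a6 on the higher side.

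**Figure D3:**
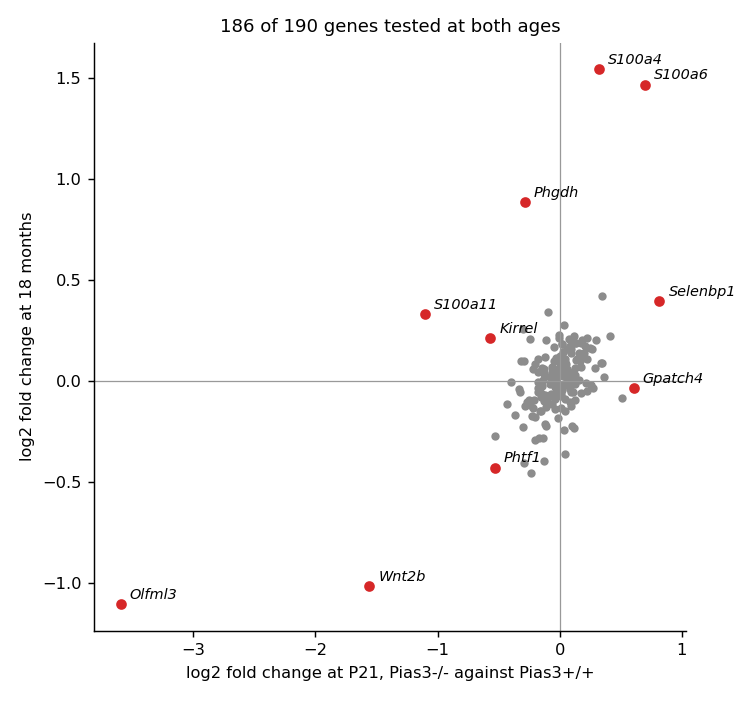
Log2 fold change of Pias3-/- against Pias3+/+ retina at 18 months (vertical axis) against that at P21 (horizontal axis) for 186 of the 190 genes tested at both ages. Each point is a gene and named genes are in red. Olfml3, at -3.59 and -1.11, and Wnt2b, at -1.56 and -1.02, stand apart from a cloud around 0, and S100a4 and S100a6 are high at 18 months, where the library with lens RNA is included.

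Whether the genotype difference itself changed with age was tested as an interaction over all 12 samples. None of 196 neighbours passed an FDR of 0.05, beside 0.209% of 12448 genes, while the unadjusted p of that edgeR test was at most 0.05 for 16 (8.16%, beside 8.89%). DESeq2 and edgeR's likelihood ratio test called 3 neighbours each (1.53%), Olfml3 and Kirrel with both, beside 1.24% and 0.795% of all genes. The smallest FDR was that of Olfml3 (interaction 2.48 on the log2 scale, SE 0.471, FDR 0.0726). Without Pias3-/- replicate 2 of 18 months it was 1.90 (SE 0.289, FDR 0.0295), and Olfml3 was then called, beside 0.138% of all genes. It was also called without Pias3-/- replicate 3 of 18 months, beside 0.161% of all genes, and with no other sample left out.

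More neighbours were called between the ages than between the genotypes. This comparison was added after the data were seen. In Pias3+/+ retina 15 of 195 neighbours differed between 18 months and P21 (7.69%, beside 7.99% of all genes), 4 higher (beside 3.70%) and 11 lower (beside 4.29%) with age. In Pias3-/- retina 13 of 196 did (6.63%, beside 8.10%), 6 higher (beside 4.59%) and 7 lower (beside 3.51%). The number in Pias3-/- fell to 6 without replicate 1 of P21 (beside 3.44% of all genes) and to 8 without replicate 1 of 18 months (beside 4.07%), so calls over the whole table fell as well. Sexes were unevenly spread over the ages, as given above. The called genes included 7 in both genotypes, which is 46.7% of the 15 and 53.8% of the 13. Over all genes the calls shared by both genotypes were 50.8% of those in Pias3+/+ and 49.3% of those in Pias3-/- retina, so the neighbours' overlap is near that of the whole table. Sums of markers of tissue around the retina also moved with age. From P21 to 18 months in Pias3+/+ samples, the median sum went from 309 to 123 CPM for pigment epithelium, from 27.6 to 4.05 CPM for 4 ciliary body and iris markers, and from 121 to 8.87 CPM for lens. In Pias3-/- samples it went from 114 to 74.9 CPM, from 17.0 to 3.80 CPM and, for lens, upward from 28.2 to 55.5 CPM, with replicate 2 of 18 months at 6959 CPM. Their part in the age changes below was not tested.

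These 7 moved the same way in both. With each sample left out in turn, Selenbp1, Selenbp2, Txnip, Mllt11 and Car14 stayed called in both genotypes. Cd1d1 was called in no such fit of Pias3-/- retina. In Pias3+/+ retina its call was lost without replicate 1 or 2 of P21 or replicate 1 of 18 months. The call of Pifo was lost in Pias3-/- retina without replicate 1 of P21 or replicate 2 or 3 of 18 months. Selenbp1 fell by 2.16 on the log2 scale in Pias3+/+ (FDR 6.64e-05) and fell by 2.59 in Pias3-/- retina (FDR 0.00234). Selenbp2, whose transcripts share sequence with those of Selenbp1, fell by 2.17 (FDR 3.08e-04) and fell by 2.59 (FDR 0.00342). Txnip, an inhibitor of thioredoxin and of glucose uptake that lies 0.135 Mb from Pias3, had 19.1, 19.1 and 16.1 CPM at P21 and 8.53, 9.81 and 7.97 CPM at 18 months in Pias3+/+ samples. In Pias3-/- samples it had 19.1, 23.1 and 23.2 CPM and then 8.81, 11.3 and 9.30 CPM. It fell by 1.03 (FDR 1.87e-04) and fell by 1.14 (FDR 0.00458). The changes were -0.68 and -0.79 for Mllt11, -0.70 and -0.66 for Car14, a membrane carbonic anhydrase of Müller glia and pigment epithelium, and -0.66 and -0.75 for Cd1d1, which presents lipid antigens. Pifo, a gene of primary cilia, rose by 1.66 (FDR 2.76e-04) and 1.42 (FDR 0.0233), from 1.29 to 1.86 CPM at P21 to 2.72 to 5.76 CPM at 18 months over both genotypes.

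Other neighbours passed in 1 genotype, of which some are given here. Wnt2b fell with age by 0.75 in Pias3+/+ retina (FDR 0.00197) and was under the FPKM filter in the fit of Pias3-/- samples. Kirrel fell by 1.14 in Pias3+/+ retina (FDR 7.72e-06), and in Pias3-/- its change was -0.37 (FDR 0.0878). Olfml3 rose by 2.34 in Pias3-/- retina (FDR 0.0207), and in Pias3+/+ retina its change was -0.16, without a call. Gpr89 and Acp6, within 1 Mb of Pias3, rose by 0.70 (FDR 0.0110) and 0.66 (FDR 0.0125) in Pias3-/- retina. Neither was called in Pias3+/+ retina. The calls of Olfml3, Gpr89 and Acp6 were lost without Pias3-/- replicate 1 of P21 or replicate 1 of 18 months. The tests of these differences between genotypes are the interactions above, none of which passed edgeR's quasi-likelihood test with all samples, although DESeq2 and the likelihood ratio test called those of Olfml3 and Kirrel and the fit with no FPKM filter called that of Olfml3.

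**Figure D4:**
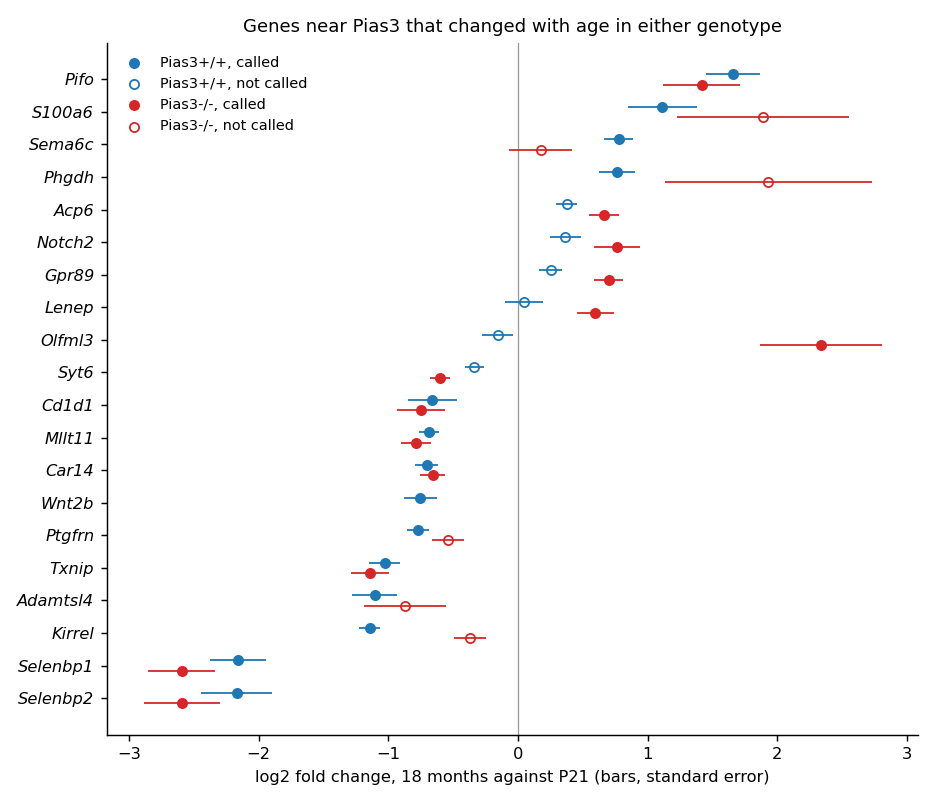
Log2 fold change of 18 months against P21 (horizontal axis) for 20 of the 21 neighbours called in either genotype (rows), in blue for Pias3+/+ and red for Pias3-/-, with the standard error as bars. Filled points are called and open points are not, and a missing point was under the FPKM filter. Selenbp1 and Selenbp2 lie lowest in both genotypes at -2.16 to -2.59, and the widest bars belong to genes high in the library with lens RNA.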

How the data were processed

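Genes and gene lists described here were chosen with earlier results of these data known. Stranded, paired-end libraries were made from total RNA. The authors aligned reads to mm10 with TopHat2 2.1.1 and counted them on genes with featureCounts, per the labels, and deposited whole-number counts, without normalization, for 24062 genes. The authors' 2 tables of their own comparisons (fold changes, p-values, FDR and group means of FPKM) were not used.

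The analysis used edgeR 4.0.16 in R 4.3.3. Genes with at least 2 FPKM in 1 sample of the fit were kept, normalized by TMM and tested by glmQLFTest over the whole table, with the 6 samples of each age fitted alone and Benjamini-Hochberg adjustment. SE is the log2 fold change divided by the root of F. CPM values used TMM factors of all 12 samples. The statistics were tested on simulated data. Totals were 11607155 to 25622505 counts, and p-values measure the spread between 3 samples.

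Named genes are those called, the 5 nearest to Pias3 per side, the 5 smallest FDR not called per age, the largest change per age and direction, and the most abundant examples of each list. Others (such as Selenbp2, Mov10, Txnip, S100a6 and those of the age comparison) were named after their values were seen. Some genes that these rules pick are not reported here or drawn in the plots. Promoters are from RefSeq (GRCm38.p6) and transcripts from GENCODE M21, aligned with Biopython 1.88. Alternatives were other normalizations, filters, thresholds and windows, DESeq2 1.42.0, edgeR's likelihood ratio test, Xist or pigment epithelium markers as a covariate, all 12 samples in 1 fit, a replicate block, and each sample left out. Proteins and protein data were not used here. Of same-numbered samples of both genotypes, the correlation of deviations from group means was between -0.25 and 0.59 at P21 and between -0.10 and 0.39 at 18 months, so they were not treated as pairs.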

Additional observations from a re-analysis of the deposited data

How the results depend on the processing

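The neighbours called at P21 numbered 3. There were 5 with DESeq2's Wald test, 5 with edgeR's likelihood ratio test, 5 with no fold change threshold, 1 with the pigment epithelium markers as a covariate, 1 in a window of 5 Mb (Selenbp1), and 1 to 8 with each sample left out, where the 8 came without Pias3-/- replicate 2. Calls over the whole table moved too, from 99 genes to 228, 259, 142 and 16 in the first 4 of these settings and 340 without that replicate. Olfml3 was called in every P21 setting whose window holds it. At 18 months none was called, against 1 with DESeq2's Wald test, 1 with the likelihood ratio test, 2 with no FPKM filter, 1 with filterByExpr (beside 0.269% of all genes), 1 with all 12 samples in 1 fit (beside 0.191%), and 0 to 1 with each sample left out. For the interaction, where none was called, there were 3 with DESeq2's Wald test, 3 with the likelihood ratio test, 1 with no FPKM filter (beside 0.132% of all genes) and 0 to 1 with each sample left out. With age, no fold change threshold gave 54 neighbours in place of 15 in Pias3+/+ and 30 in place of 13 in Pias3-/- retina, and an FDR of at most 0.01 gave 6 in Pias3-/- retina, beside 3.61% of all genes. Without a fold change threshold 30.3% and 14.4% of all genes were called. With each sample left out the ranges were 14 to 17 and 6 to 15. The replicate block, for which the labels give numbers but no pairing, gave 1 neighbour at 18 months, 1 for the interaction, and 4 at P21, beside 0.340%, 0.193% and 1.45% of all genes. Rnf115 at P21 turned from -0.04 to 0.054 with library size alone and to 0.023 with the pigment epithelium covariate. With each sample left out, the 18-month log2 fold changes that crossed 0 were those of Polr3c (-0.065 to 0.080), Acp6 (-0.082 to 0.0057), Gpatch4 (-0.16 to 0.071) and Kcnd3 (-0.081 to 0.049), none of them called. Causes were not tested. With 3 samples per group, each left-out fit has few residual degrees of freedom, and the 99 genes called at P21 over the whole table fell to 6 without Pias3-/- replicate 1.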

Other observations

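Direction along the chromosome was looked at after the values were seen. Among the 35 neighbours tested between 5 and 10 Mb distal of Pias3, 24 lay below 0 at P21 and 29 at 18 months, beside 50.2% and 53.3% of all genes above 0. Of the 34 tested at both ages, 20 were below 0 at both and 3 above 0 at both. Olfml3, Wnt2b, Phtf1 and Ap4b1 are in this stretch. Nearer to Pias3 on the distal side, 10 of 12 lay below 0 at P21 and 4 of 13 at 18 months within 2 Mb, and 4 of 8 and 2 of 8 between 2 and 5 Mb. On the proximal side between 5 and 10 Mb, 30 of 81 neighbours lay below 0 at P21 and 31 of 80 at 18 months. Other stretches of chromosome 3 had similar counts at 18 months, such as 31 of 39 genes below 0 between 60 and 70 Mb proximal. At P21 that stretch had 20 of 40 below 0. Outside the 20 Mb around Pias3, 193 of 362 genes were below 0 at P21 and 230 of 361 at 18 months. Between 5 and 10 Mb distal, the unadjusted p of edgeR's quasi-likelihood test was at most 0.05 for 9 of 35 neighbours at P21 (25.7%). At 18 months it was for 7 of 35 (20%), beside 16.8% and 9.27% of all genes at the 2 ages. Genes of one stretch share samples and are not independent, and no test was made of this pattern.

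Outside the 20 Mb around Pias3, 3 of 362 genes of chromosome 3 were called at P21 (Ift80, Wdr47 and Tifa), beside 88 of 11085 genes of other chromosomes, and 8 of 361 at 18 months, beside 20 of 11048 genes of other chromosomes at 18 months. All 8 lie between 10 and 40 Mb distal of Pias3. They are Wdr47, A930005H10Rik, Bcar3, Zgrf1, Alpk1, Tifa, Pla2g12a and Cisd2. Wdr47 and Tifa were called at both ages.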
